A study of Equus caballus with 18 samples.

Results

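Clenbuterol at its low dose was examined in gluteal muscle of 5 horses, each with 1 array from day 14 of dosing and 1 array from its own baseline. These 10 arrays are all of the low dose arrays among the 18 of the series. The horses, called L1 to L5, were given clenbuterol by mouth morning and evening over 30 days, each dose 0.8 µg/kg, and day 14 lies within that period. The other 8 arrays are from 4 horses, E1 to E4, on an escalating regimen of 0.8, 1.6 and 2.4 µg/kg for 3 days each and then 3.2 µg/kg for 21 days, sampled on day 28 and at baseline. All were healthy adult Thoroughbreds kept in race-type exercise, the baselines included, and no arrays came from horses given a vehicle. Time in training therefore cannot be told apart from the drug. Each biopsy was a needle sample of whole muscle taken under sedation, so fewer cells of a type and less RNA per cell cannot be told apart.

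Clenbuterol is a β-adrenergic agonist that acts on muscle fibers and on airway smooth muscle. Bound β-adrenergic receptors raise cyclic AMP, which activates protein kinase A and, through it, transcription factors of the CREB family. Receptor kinases and β-arrestins then uncouple and internalize the receptors, and prolonged dosing is known for loss of response. In muscle of several species β-agonists are known for increased fiber size, a shift towards fast fibers and less fat.

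Values are log2 signals, so that a difference of 1 is a doubling, and each change is day 14 minus baseline of the same horse. The skeletal muscle markers were bright in each of the 10 arrays. The mean over the 8 measured markers, which include creatine kinase CKM and myoglobin MB, was 8.22 to 10.6 on day 14 and 8.86 to 10.9 at baseline, with L5 lowest at both times. The arrays of L4 and L5 stood apart from those of L1 to L3. The standard deviation over probesets was 1.2 to 1.41 in L4 and L5 and 1.67 to 1.75 in L1 to L3. Array pairs among L1 to L3 correlated at 0.933 to 0.973 across probesets (15 pairs), whereas pairs with an array of L4 or L5 correlated at 0.557 to 0.873 (30 pairs). The changes themselves correlated across 30558 probesets at 0.44 (L1 and L2), 0.37 (L1 and L3) and 0.42 (L2 and L3), and at -0.016 to 0.046 in every pair with L4 or L5. Probesets are not independent replicates, and these correlations are descriptions. Results are therefore also given without L4 and L5. That choice rests on these same values, the changes included. Calls and adjusted p-values without L4 and L5 are therefore descriptions of L1 to L3 and no independent test.

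No probeset differed between day 14 and baseline at an adjusted p under 0.05 in the limma fit with horse as a block (0% of 30558, with 0.348 the smallest adjusted p). At an unadjusted p under 0.05 there were 2666 probesets, 1336 higher and 1330 lower on day 14. A change of more than 2-fold together with an unadjusted p under 0.05 was found for 112 higher and 273 lower probesets. The paired test of the study's methods, applied here to each probeset alone, called 2 probesets after adjustment, and the fit of all 18 arrays called 5. The study itself reported differentially expressed genes at the low dose, but none of these changes was significant after adjustment. Its methods describe a filter by fold change and analysis of variance, so its count of genes and the counts of probesets here are unlike. Among the 16661 genes with a probeset of their own, 1015 (6.09%) were higher in all 5 horses and 735 (4.41%) were lower in all 5. Likewise, 882 genes (5.29%) were higher and 505 (3.03%) lower at an unadjusted p under 0.05. These shares are the background for the counts below. When L4 and L5 were left out, 178 probesets (0.582%) were called, 15 higher and 163 lower.

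The median change also varied with the brightness of the genes, and not alike in each horse. Among the brightest 1666 genes, the top one of 10 equal groups, the median change was 0.27 in L1, 0.17 in L2, 0.10 in L3 and 0.27 in L4, but -0.49 in L5. Among the dimmest 1667 it was -0.08, -0.06 and -0.09 in L1 to L3, and 0.09 and 0.14 in L4 and L5. Each family below was therefore compared with equally bright genes: the median change of its brightness group was subtracted from each gene in each horse.

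**Figure D1:**
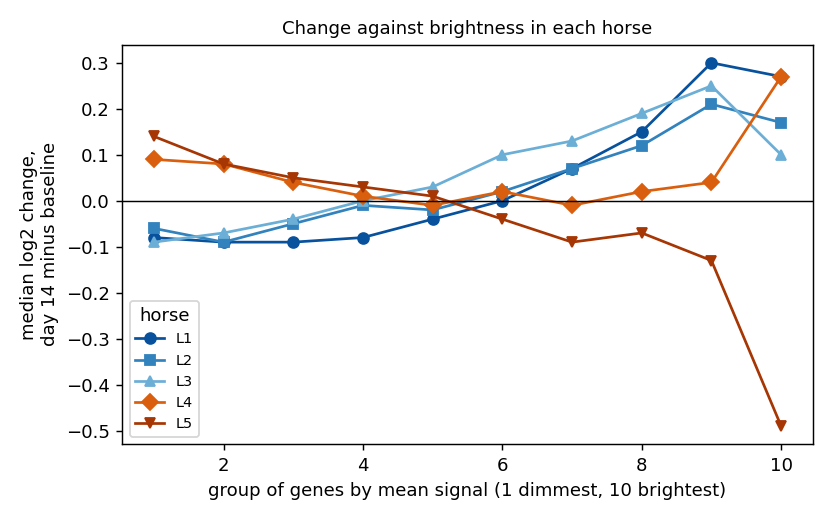
Median log2 change (day 14 minus baseline) of single-symbol genes in 10 equal groups by mean signal, 1 line per horse. L1 to L3 climb with brightness up to the ninth group, and L5 drops to -0.49 in the brightest.

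The largest differences in the low dose arrays were in genes of skin. KRT1, a keratin of the upper epidermis, had signals of 1.85, 2.28, 1.65, 3.15 and 2.27 on day 14 in L1 to L5, against 8.74, 8.97, 9.26, 3.11 and 2.18 at baseline. S100A7, an antimicrobial protein of keratinocytes, had 1.90, 2.59, 1.53, 2.21 and 1.86 on day 14 and 8.98, 8.81, 8.88, 2.05 and 2.09 at baseline. In both genes the baseline arrays of L1, L2 and L3 were high and the other 7 arrays were low. The changes over the 5 horses were -4.21 ± 1.29 for KRT1 and -4.14 ± 1.24 for S100A7 (SE, adjusted p = 0.491 for both), and without L4 and L5 they were -7.06 (adjusted p = 0.00255) and -6.88 (adjusted p = 0.00308).

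The same held for the marker list. Of 30 skin epithelium markers 23 were measured, and their mean signal was 2.5 to 3.04 on day 14 in the 5 horses. At baseline it was 5.00, 4.91 and 5.02 in L1 to L3 and 2.98 and 3.06 in L4 and L5. In 17 of the 23 markers the baseline arrays of L1 to L3 were each above all other low dose arrays, compared with 259 of all genes (1.55%). On day 14, 21 markers were lower in each of L1 to L3, while 13 were lower in L4 and 11 in L5. Without L4 and L5, 14 of the 23 were called, all lower, out of 40 genes (0.24%) called lower in that fit. AQP3, a water and glycerol channel of epidermis, had 3.23, 3.93, 3.02, 3.52 and 3.40 on day 14 and 6.50, 6.01, 5.95, 3.78 and 4.32 at baseline. It was lower in all 5 horses (change -1.89 ± 0.44, adjusted p = 0.447). CD44, a hyaluronan receptor of many cell types, had 2.71, 3.04, 3.25, 2.57 and 2.71 on day 14 against 4.41, 5.06, 4.96, 2.80 and 3.40 at baseline. The part of skin in the lower values of other genes was not tested. The 1 gene (0.006%) called higher without L4 and L5 was POLR2K, a small subunit shared by the RNA polymerases, which was chosen for description after its values were seen. It had 4.84, 4.94, 4.32, 2.76 and 1.84 on day 14 and 2.30, 2.80, 2.70, 2.82 and 2.69 at baseline, so that only L1 to L3 were higher.

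**Figure D2:**
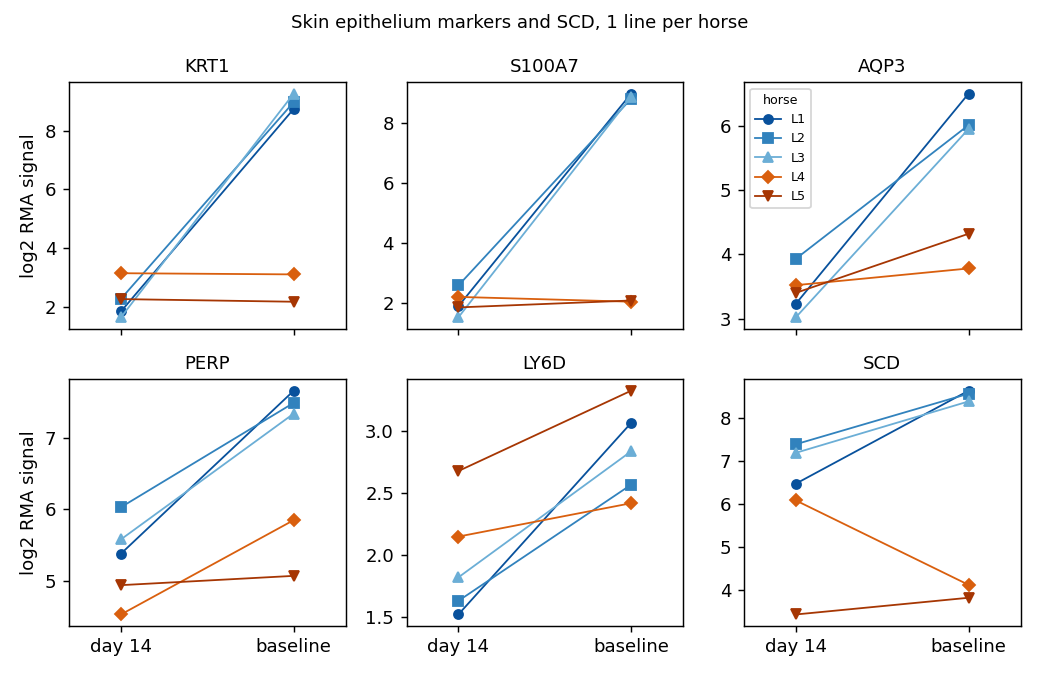
Log2 signal of 5 skin epithelium markers and SCD on day 14 and at baseline, 1 line per horse and a separate scale in each panel. KRT1 and S100A7 lay above 8 only in the baseline arrays of L1 to L3, and SCD was lower on day 14 in those horses but higher in L4.

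Other genes had smaller differences that were alike in each horse. ARRB2, which encodes β-arrestin 2, the adaptor that uncouples and internalizes β-adrenergic receptors, had 3.85, 4.13, 3.67, 3.12 and 3.63 on day 14 and 3.08, 3.33, 2.87, 2.34 and 2.79 at baseline. Its change lay between 0.77 and 0.84 in all 5 horses, with a mean of 0.80 ± 0.13 (SE, adjusted p = 0.397). The methods' paired test, which does not share variance between probesets, gave it an adjusted p of 0.00936 and also called LIMCH1 (change 0.68). SNX5, a sorting nexin of endosomes, had 4.73, 4.89, 4.60, 3.35 and 2.23 on day 14 and 3.11, 3.56, 3.57, 2.00 and 1.40 at baseline. Its change of 1.23 ± 0.17 had an adjusted p of 0.348 in the low dose fit and of 0.0462 in the fit of all 18 arrays. For both genes L4 and L5 shared the direction of L1 to L3, but the levels of the horses overlapped between the times.

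The other 8 of the 10 genes with the smallest p among those higher in all horses had changes of 0.81 to 1.10. CLK4, a kinase of splicing factors, had 5.21, 5.36, 4.75, 3.01 and 3.26 on day 14 and 3.72, 4.36, 3.88, 1.87 and 2.28 at baseline (change 1.10 ± 0.15). SARNP (0.95) acts in mRNA export, RCOR3 (0.90) is a corepressor, and SPIN1 (0.96) is a reader of modified histones and PHF3 (0.86) a regulator of RNA polymerase II. BUB3 (0.81) belongs to the spindle checkpoint, DNAJC25 (0.86) is a co-chaperone and CHCHD1 (0.96) is a mitochondrial protein. DNAJC25 had 2.88, 2.80, 2.99, 2.79 and 2.81 on day 14 against 2.14, 2.15, 2.18, 1.93 and 1.56 at baseline, so that the groups did not overlap. This gene was picked for its small p, and the share of all genes without overlap was not counted. Its baseline signals were all below the low dose array medians of 2.42 to 2.74. All 10 had adjusted p-values of 0.348 to 0.41.

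Among the 10 genes lower in all horses, SPARC, a collagen-binding matrix protein, had 7.14, 6.65, 6.68, 4.77 and 3.87 on day 14 and 7.66, 7.54, 7.70, 5.2 and 4.59 at baseline. Its change was -0.72 ± 0.15 (adjusted p = 0.43). PERP (-1.39), a desmosome protein, was on the skin marker list, and PGLYRP3 (-0.80) is a peptidoglycan recognition protein of epithelia. PERP kept signals of 4.53 to 6.03 on day 14. In L4 and L5 the changes were -1.32 and -0.13 for PERP and -0.29 and -1.14 for PGLYRP3. HOXC13 (-0.72) regulates hair keratins, LINGO4 (-0.89) is a membrane protein, ABHD15 (-0.75) is a lipase-like protein of fat cells and MIR181A (-1.05) is a microRNA gene. OR1O9 (-1.18), OR12K5 (-0.69) and OR2M17 (-0.84) are olfactory receptors. MIR181A had 3.51, 3.18, 3.51, 3.02 and 4.41 on day 14 and 5.10, 4.52, 4.90, 3.62 and 4.73 at baseline, and was called without L4 and L5 (-1.44, adjusted p = 0.0359). These 20 genes were chosen for their agreement among horses, which is no test of it.

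**Figure D3:**
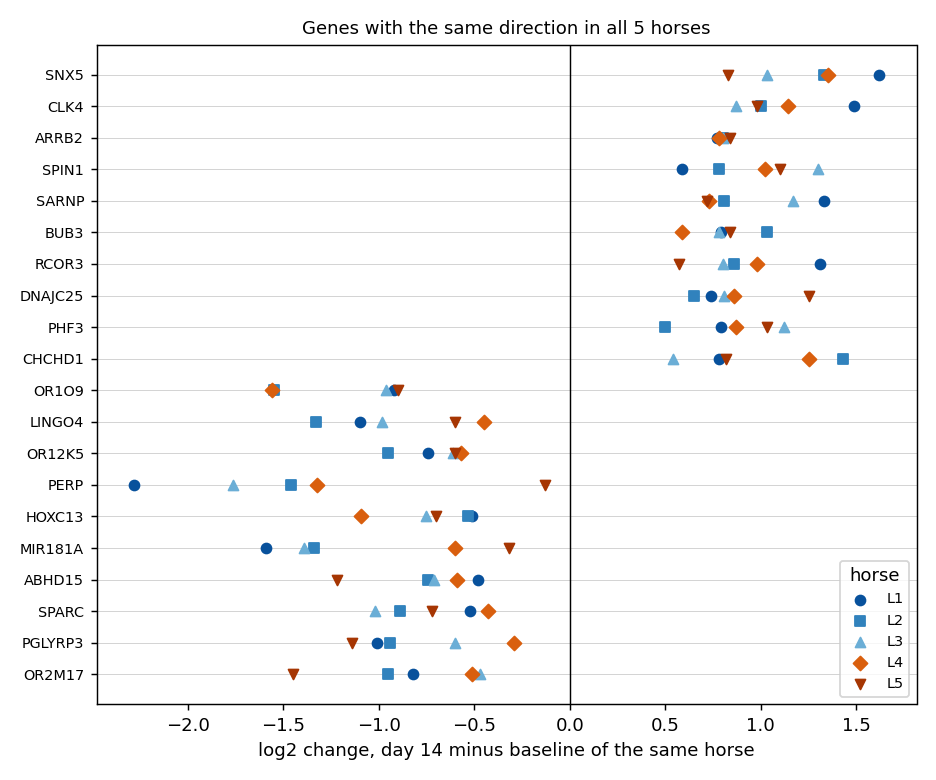
Log2 change in each of the 5 horses for the 20 genes with the smallest limma p among those higher or lower in all 5. ARRB2 has the narrowest spread, 0.77 to 0.84, and PERP reaches from -2.28 in L1 to -0.13 in L5.

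Gene families were ordered by their weakest horse. The shares of members alike in all 5 horses come from the same changes as this order. For families picked by it, those shares are descriptions and no independent test. Of 110 families that share a symbol stem and have at least 15 genes, 12 had a median above that of equally bright genes in all 5 horses and 10 had one below. How many families would agree in sign by chance was not estimated. The changes of L1 to L3 were correlated (0.37 to 0.44), so the 5 horses do not give 5 independent signs. Without the subtraction the split was 20 higher and 4 lower. With L4 left out 38 stem families kept 1 sign in the remaining horses, and with L5 left out 33 did, which needs agreement of fewer horses. Of 51 functional lists none was higher in all 5 horses and 3 were lower (fibrillar collagens, glycolysis and autophagy), with weakest horses of -0.07, -0.03 and -0.005.

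The POLR family, the subunits of RNA polymerases, led the order. Its median change after subtraction was 0.30, 0.19, 0.19, 0.19 and 0.35 in L1 to L5. Of its 27 genes, 8 (29.6%) were higher in all 5 horses and none was lower in all 5, against 6.7% higher and 4.22% lower for genes of the same brightness. POLR2D had 5.25, 5.25, 5.19, 4.28 and 3.26 on day 14 and 4.27, 4.67, 4.25, 2.70 and 3.03 at baseline (change 0.86 ± 0.21, adjusted p = 0.451). POLR2H (0.92) and POLR2J (0.85) were also higher in all 5 horses.

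PHF, DNAJC, DHX, USP and RBM were also among the 12 families above equally bright genes in all 5 horses. Of 18 PHF genes, which carry a chromatin-reading finger, 6 (33.3%) were higher in all 5 horses, PHF3 and PHF8 (0.70) among them, against 6.58% of equally bright genes. Of 28 DNAJC co-chaperones 7 (25%) were, with DNAJC11 (0.74) and DNAJC24 (0.62) among them, and 1 was lower in all 5. Of 16 DHX RNA helicases 4 (25%) were, DHX15 (0.68) included. Of 49 USP deubiquitinases 9 (18.4%) were, USP47 (0.66) included, and of 34 RBM RNA-binding proteins 6 (17.6%). The weakest horse was at 0.045 in RBM and in MED, at 0.035 in METTL and at 0.01 in KDM, and MED25 was lower in all 5 horses (-0.89). No member of these families was called.

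RNA splicing genes behaved in the same way in 4 horses. Of 41 measured splicing kinases and SR proteins, 12 (29.3%) were higher in all 5 horses and 0 lower, against 7.68% and 3.31% of equally bright genes. Their median change over the horses was 0.286, against 0.024 for all genes. After subtraction the median was 0.50, 0.09, 0.28 and 0.24 in L1 to L4 and -0.02 in L5. RBM39, a splicing coactivator, had 4.77, 4.49, 5.05, 3.96 and 3.07 on day 14 and 3.80, 3.89, 3.88, 3.12 and 2.69 at baseline (change 0.79 ± 0.17, adjusted p = 0.42). HNRNPC, which binds nascent RNA, was higher by 0.74.

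Chaperones, proteasome subunits and mitochondrial ribosomal proteins had positive medians that were not shared by every horse. Heat shock genes and chaperones (29 measured) were at 0.35, 0.23, 0.32 and 0.28 in L1 to L4 but -0.43 in L5 after subtraction. TCP1 and CCT2, subunits of the cytosolic chaperonin, were higher in all 5 horses by 0.81 and 0.66. TCP1 had 5.99, 6.11, 6.76, 4.57 and 3.55 on day 14 and 5.12, 5.16, 5.51, 3.73 and 3.43 at baseline. Of 66 mitochondrial ribosomal proteins 10 (15.2%) were higher in all 5 horses, against 8.27% of equally bright genes, with MRPL14 at 0.92 and medians of -0.06 in L3 and L4. Of 38 proteasome subunits 4 (10.5%) were, PSMB7 (0.66) included, against 7.99% of equally bright genes. Of 32 sorting nexins and retromer genes 6 (18.8%) were, SNX1 (0.56) included, against 7% of equally bright genes. SNX8 was lower in all 5 (-0.44).

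**Figure D4:**
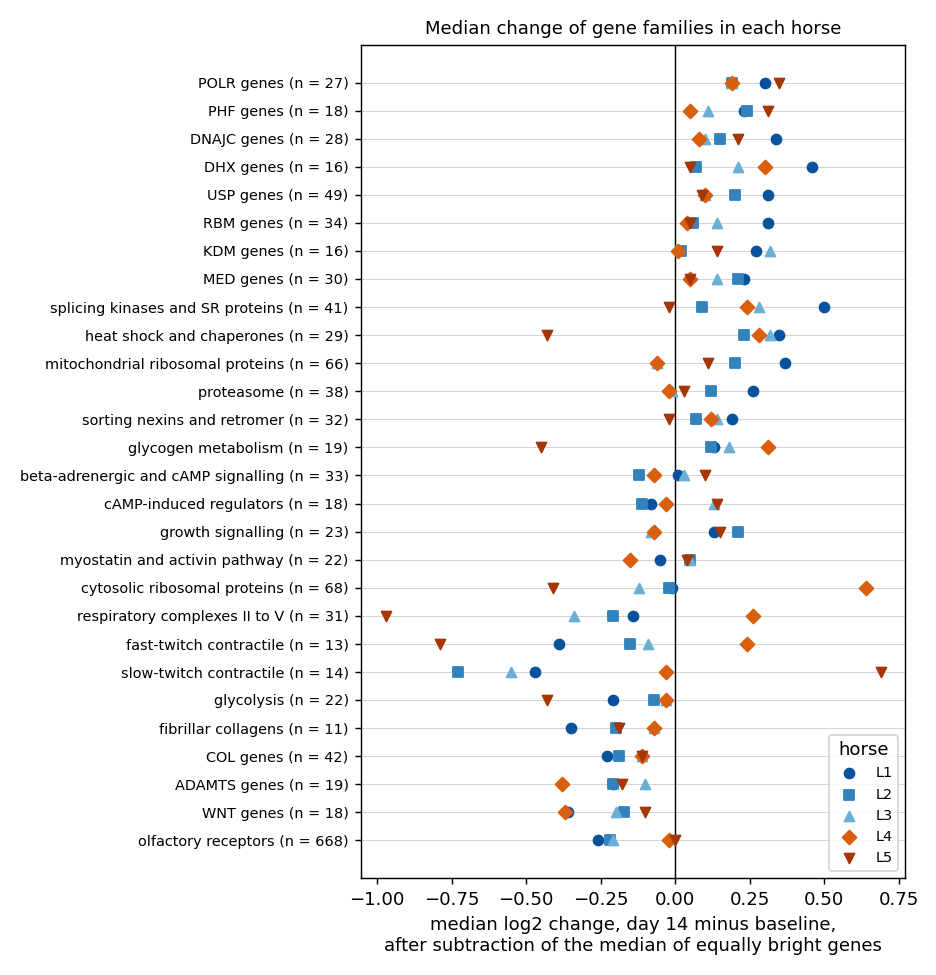
Median log2 change of each family in each horse after subtraction of the median of equally bright genes, with the number of measured genes. POLR lies at 0.19 to 0.35 in all 5 horses, whereas respiratory complexes and contractile genes spread to both sides of 0.

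Genes of the drug's own pathway were measured next. Of 33 β-adrenergic and cAMP signalling genes 4 (12.1%) were higher in all 5 horses and 2 (6.06%) lower. The shares of equally bright genes were 7.16% and 3.66%. The median change was 0.07. After subtraction the medians were 0.01, -0.12, 0.03, -0.07 and 0.10 in L1 to L5, without a common direction. Besides ARRB2, PRKACA, the catalytic subunit of protein kinase A, had 5.12, 5.42, 5.58, 4.91 and 5.02 on day 14 and 4.94, 5.25, 4.83, 4.22 and 4.54 at baseline (change 0.45 ± 0.16, adjusted p = 0.515). GRK2, the receptor kinase that recruits β-arrestins, had 5.37, 5.63, 5.73, 5.09 and 4.63 on day 14 and 5.09, 5.57, 4.77, 4.18 and 4.37 at baseline (0.49 ± 0.19, adjusted p = 0.539). The groups overlapped in both.

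Of 18 genes that cAMP is known to induce, none was higher in all 5 horses and 3 (16.7%) were lower in all 5, against 7.73% and 3.73% of equally bright genes. At an unadjusted p under 0.05, however, 3 (16.7%) were higher and 1 (5.56%) lower, and the median change was 0.11. PER1, a clock gene, was lower in all 5 (-0.43 ± 0.16, adjusted p = 0.538). DUSP1, a phosphatase of MAP kinases, was higher in 4 horses (0.50). EGR1, an immediate early gene, had 3.30, 3.11, 6.20, 5.17 and 2.88 on day 14 and 2.81, 3.19, 3.13, 2.76 and 2.76 at baseline. Only L3 and L4 were high, and without L3 the mean change was 0.735 instead of 1.20.

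Of 23 growth signalling genes 3 (13%) were higher in all 5 horses and none was lower in all 5. The shares of equally bright genes were 8.29% and 3.26%. AKT1, a kinase downstream of insulin and IGF1, had 6.17, 6.58, 6.48, 5.59 and 4.28 on day 14 and 5.88, 5.85, 5.73, 5.23 and 2.70 at baseline (change 0.74 ± 0.21, adjusted p = 0.483). AKT2 (0.41) was higher in 4 horses and equal in L5, and MTOR (0.37) was higher in all 5. Among 22 genes of the myostatin and activin pathway the median was 0.003. BMPR1A (0.82) and TGFBR1 (0.84), both receptors, were higher in all 5 horses, and WFIKKN1 (-0.55), an antagonist of myostatin, was lower in all 5. Of 19 genes of atrophy and ubiquitin ligation 2 (10.5%) were higher in all 5, TRAF6 (0.46) included, and none lower. Equally bright genes had shares of 8.23% and 3.13%. GADD45A, a stress gene also induced by denervation, was higher in all 5 (0.53), and AGRN, which clusters acetylcholine receptors, was lower in all 5 (-0.68).

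**Figure D5:**
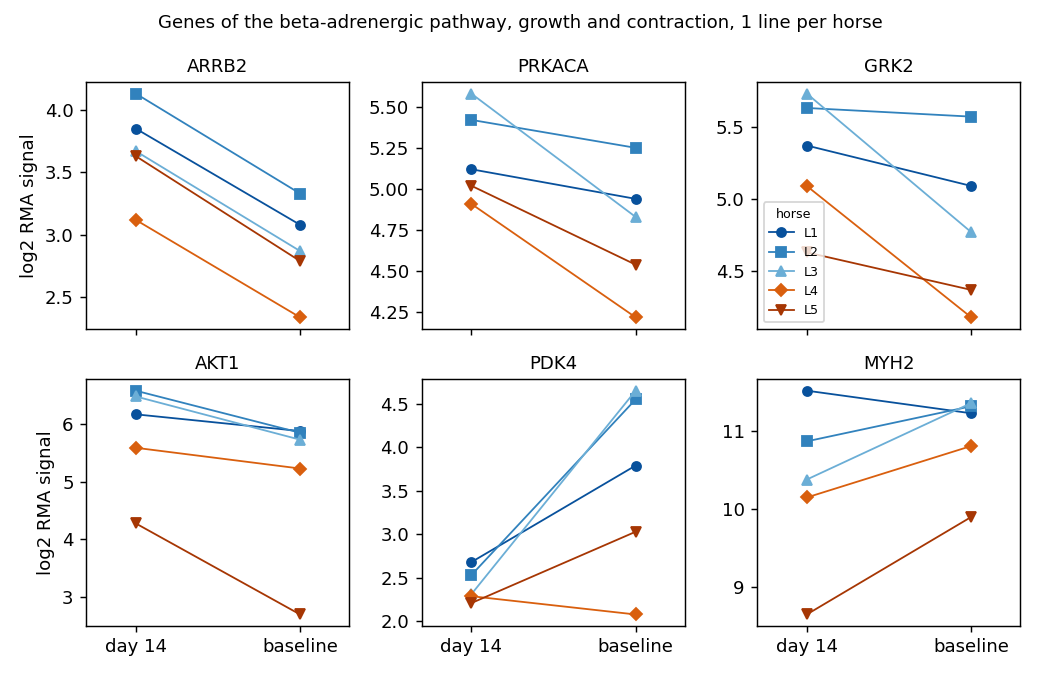
Log2 signal of ARRB2, PRKACA, GRK2, AKT1, PDK4 and MYH2 on day 14 and at baseline, 1 line per horse and a separate scale in each panel. The first 4 were higher on day 14 in all 5 horses, and PDK4 was lower in each horse except L4.

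Contractile and energy genes differed between horses in direction. In 37 of the 51 functional lists L4 and L5 had medians of opposite sign before subtraction, and in 31 of these L4 was higher and L5 lower on day 14. Also before subtraction, the 31 genes of respiratory complexes II to V had medians of 0.13, -0.04, -0.24, 0.53 and -1.46 in L1 to L5. The 68 cytosolic ribosomal proteins were likewise at 0.21, 0.12, -0.02, 0.83 and -0.81. For fast-twitch contractile genes (13 measured) the medians before subtraction were -0.12, 0.02, 0.01, 0.38 and -1.28. For slow-twitch genes (14 measured) they were -0.28, -0.56, -0.45, 0.21 and 0.29. L5 was also the horse with the lowest median change in the brightest group of all genes. Without L4 and L5 the slow-twitch median was -0.442 and the fast-twitch median -0.06.

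MYH2, the fast oxidative myosin, had 11.52, 10.87, 10.38, 10.15 and 8.65 on day 14 and 11.23, 11.32, 11.36, 10.81 and 9.90 at baseline (change -0.61 ± 0.23, adjusted p = 0.539). MYH7, the slow myosin, was at -0.31 ± 0.20. CKM was lower in all 5 horses (-0.48 ± 0.17, adjusted p = 0.519), and TNNT3 (-0.41) and MB (-0.35) were lower in 4. PVALB, a calcium buffer of fast fibers, was higher in all 5 (0.54), and CSRP3, a Z-disc protein, was lower in 4 (-0.64). MYL2, the slow regulatory light chain, was lower in L1 to L3 and higher in L4 and L5. NDUFS7, of complex I, was lower in all 5 (-0.41), and ATP5MC1, of ATP synthase, was lower in each horse except L4 (-0.58). RPL34 (0.68) was higher in all 5 horses while RPLP2 (-1.09) was lower in each horse except L4. PRDX2 (-0.97) and GPX1 (-0.46), which remove peroxides, were lower in all 5.

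Fuel handling gave a mixed picture. Of 19 glycogen metabolism genes 4 (21.1%) were higher in all 5 horses and none lower, against 7.18% and 3.3% of equally bright genes. EPM2A, the glycogen phosphatase laforin, had 5.17, 5.14, 5.06, 3.80 and 2.31 on day 14 and 3.75, 4.21, 4.44, 3.26 and 2.30 at baseline (change 0.70 ± 0.22, adjusted p = 0.491). PPP1R3C and PPP1R3D, which target a phosphatase to glycogen, were at 0.77 and 0.53, the first with L5 lower. PDK4, a kinase that restrains pyruvate oxidation, had 2.68, 2.53, 2.31, 2.29 and 2.21 on day 14 and 3.79, 4.55, 4.65, 2.08 and 3.03 at baseline (-1.22 ± 0.36, adjusted p = 0.485). SCD, the desaturase of fatty acid synthesis, had 6.47, 7.39, 7.19, 6.08 and 3.42 on day 14 and 8.64, 8.57, 8.39, 4.11 and 3.81 at baseline (-0.59 ± 0.53, adjusted p = 0.77). The SCD change was -0.20 without L1, -1.23 without L4 and -1.52 without L4 and L5 (adjusted p = 0.0978). ELOVL7 (-0.73) and ELOVL4 (-0.59), which elongate fatty acids, were also lower in each of L1 to L3. PDK4, SCD and both ELOVL genes were each lower in L1 to L3, the horses whose baseline arrays had high skin markers, and the part of skin was not tested.

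COL genes, ADAMTS proteases and WNT ligands had medians below those of equally bright genes in all 5 horses. Other matrix families did not, with MMP proteases (20) at -0.10, 0, 0.07, -0.17 and 0.16. COL genes (42) had medians of -0.23, -0.19, -0.11, -0.11 and -0.11 in L1 to L5, although 1 was higher and 2 (4.76%) lower in all 5 horses, near the 4.48% of equally bright genes. COL9A2 (-0.72) and COL17A1 (-0.73) were lower in 4 horses and COL16A1 (-0.35) in all 5, and COL17A1 is a collagen of the epidermal basement. ADAMTS proteases (19) were at -0.21, -0.21, -0.10, -0.38 and -0.18, and WNT ligands (18), with WNT4 (-0.48), at -0.36, -0.17, -0.20, -0.37 and -0.10. COL1A1 was not among the lower genes (0.45 ± 0.22, adjusted p = 0.605). Its change was 0.28 without L5 and 0.11 without L4 and L5. LUM, a collagen-binding proteoglycan, was higher in all 5 horses (0.62 ± 0.16, adjusted p = 0.462).

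Of the 22 genes that the study singled out, 21 had a probeset of their own. None was higher or lower in all 5 horses, 1 (MYH2) had an unadjusted p under 0.05, and their changes ran from -0.61 to 0.448. The study chose them partly from its array results, tabulated for the escalating regimen, and partly from known effects of clenbuterol. IL6 and IL1A, inflammatory cytokines, were at 0.012 and -0.10, LPL, which takes up fat from lipoproteins, at 0.016, COL1A2 and COL3A1 at 0.06 and -0.09, and MYLK at 0.004. The signs of IL6, COL1A2, COL3A1, LPL and MYLK depended on which horses or scaling were used. IL31RA (-0.28) and DSC2 (-0.38), a desmosomal cadherin, were lower in 4 horses.

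Olfactory receptors, which detect odours in the nose, had lower signals in part of the horses. OR1O9, OR12K5 and OR2M17 had mean signals of 1.86, 1.74 and 2.42 on day 14 and 3.04, 2.43 and 3.26 at baseline. The low dose array medians were 2.42 to 2.74, so signals of this size are dim. Levels of the other receptors are not given here. Of 668 receptors 68 (10.2%) were lower in all 5 horses and 2 (0.299%) higher, against 4.78% and 3.59% of equally bright genes. Before subtraction their median change was -0.34, -0.28 and -0.26 in L1 to L3 and 0.05 and 0.09 in L4 and L5. After subtraction it was -0.26, -0.22, -0.21, -0.02 and 0 in L1 to L5. L1 to L3 were the horses with lower values, as in the skin markers.

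The low dose changes differed from those of the escalating regimen at 11179 of 30558 probesets (36.6%, adjusted p under 0.05, limma fit of all 18 arrays), with the low dose change higher at 5162 (46.2%) and lower at 6017. The balance depended on the features and on the scaling. Among single-symbol genes 4164 were higher and 3049 lower, and with median centring 7930 of 11770 probesets (67.4%) were higher. The regimens also differ in day, in horses and in scale: the array medians were 2.42 to 2.74 in the low dose arrays and 4.06 to 4.5 in the escalating arrays. MYH2 differed most among the myosins, with a low dose change of -0.61 and an escalating dose change of -5.03 (difference 4.42, adjusted p = 3.68e-05). ARRB2 was at 0.80 in the low dose horses and -0.57 in the escalating dose horses (difference 1.37, adjusted p = 0.00105). PRKACA was at 0.45 in the low dose horses and -1.78 in the escalating dose horses (difference 2.23, adjusted p = 3.63e-05). For DNAJC25 (0.86 and 0.62) and PERP (-1.39 and -1.13) no difference between the regimens was called, at adjusted p of 0.562 and 0.642.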

How the data were processed

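Each biopsy of superficial gluteal muscle gave total RNA for a single Affymetrix equine gene array. The authors made the deposited log2 values by the RMA method in Affymetrix Expression Console and filtered genes in Transcriptome Analysis Console 3.0. Which arrays were normalized together is not given in the sources used here, and RMA was not repeated. The 30559 probesets were used as deposited, and 1 value missing in the baseline array of L4 left 30558 for fits with that array. Symbols came from the platform annotation: 16789 probesets named 1 gene, 343 several and 13427 none, and where a gene had several probesets the brightest on average was kept.

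Day 14 was compared with baseline in R 4.3.3 with limma 3.58.1 (lmFit and eBayes, two-sided), with horse as a block and Benjamini-Hochberg adjustment over all probesets. The block is the horse itself. Deviations from the group means correlated at 0.42 to 0.705 within the 5 horses. L4 and L5 stood apart at both times, which can raise these values, so they do not show the pairing. The baseline array of L1 correlated at 0.933 with its own day 14 array and at 0.942 with that of L2. The SE and p-values combine the spread between these 5 horses with a variance shared over all probesets. For a gene with a narrow spread, such as ARRB2 (changes of 0.77 to 0.84, SE 0.13), the shared part weighs most. Genes were split into 10 equal groups by mean over the low dose arrays for the comparison with equally bright genes. Lists and families with fewer than 4 measured genes (15 for symbol stems) were left out. The members and lists were chosen with earlier results of these data known.

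Named genes are the 10 smallest p-values in each direction among genes alike in 5 of 5 horses, the genes the study names, up to 3 genes of each list or of each stem family alike in 5 horses by p, and the 3 brightest of each cell marker list. All 253 such genes, POLR2K included, were run under every alternative, and 102 of them, picked after their values were seen, are given in the text. The fit was tested on simulated data of the low dose design, with 100 changed probesets each at log2 changes of 1, 2 and 3 among 30558. All sizes were planted and adjusted together, with noise independent between probesets. The fit recovered 51, 95 and 100 of them, with 10 false calls over all sizes. The larger changes ease the adjusted threshold, and the real arrays had no calls. The 51 is therefore not the recovery to expect in the real arrays. Recovery of changes that differ between horses, as those of L4 and L5 did from L1 to L3, was not tested. In the limma fit of the real arrays SNX5 (1.23) and KRT1 (-4.21) had adjusted p-values of 0.348 and 0.491. Arrays give no counts, and the number of horses limits the precision. The alternatives were other normalizations, variance models, array weights, tests and filters, a fit without the block, a fit that pools the 18 arrays, and fits with horses left out. Quantile normalization of L1 to L3 alone was added after seeing the data.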

Additional observations from a re-analysis of the deposited data

Results flagged for a closer look

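One horse lay far from the other 4 in 2 of the 102 genes described and in 2 of 28 families, where chance flags about 1 in 20. These were MYH7 in L4 (change 0.50), MYH8 in L5 (0.86), the glycogen metabolism median in L5 (-0.45) and the heat shock and chaperone median in L5 (-0.43). Over all 253 genes of the naming rule 17 had such a horse, and it was L5 in 11, L4 in 5 and L2 in 1.

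For 169 of the 253 genes, 78 of them among the 102 described, the low dose change differed from the escalating dose change in the limma fit of all 18 arrays. The scales, horses and days of the regimens differ as well and cannot be told apart from the dose. With quantile normalization 77 of the 78 kept their direction and 59 their call, GPX1 turning to -0.09, and with median centring 78 and 66 did. Among the 78, the low dose change was the higher in 53, where each value is the low dose change minus the escalating dose change. Contractile and metabolic genes were MYH2 4.42, MYH9 1.14, MYH11 1.28, CSRP3 1.74, MB 1.18, EPM2A 2.32, PPP1R3C 3.09, PPP1R3D 1.44, LPL 1.61, PRDX2 0.90, GPX1 0.63 and PMPCA 1.53. Signalling genes were ARRB2 1.37, PRKACA 2.23, GRK2 1.88, PER1 1.19, DUSP1 1.97, GADD45A 2.06, AKT1 2.37, AKT2 2.30, MTOR 1.81, BMPR1A 1.79, TGFBR1 0.95, TRAF6 1.36, SNX5 2.18 and SNX1 1.48. RNA, chromatin and protein handling genes were CLK4 1.42, SPIN1 2.74, SARNP 0.84, BUB3 1.90, RCOR3 1.85, PHF3 1.17, PHF8 0.65, RBM39 1.82, HNRNPC 1.31, DHX15 1.44, POLR2D 2.17, POLR2H 2.10, POLR2J 1.72, CCT2 2.11, TCP1 2.05, DNAJB5 2.28, DNAJC11 2.76, DNAJC24 1.41, USP47 1.96, PSMB7 2.14, RPL34 1.19, MRPL14 2.24 and CHCHD1 2.15. The others were SPARC 1.25, LUM 2.33, COL1A1 1.25 and PMP22 1.37.

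The low dose change was the lower in the other 25. Receptor and cytokine genes were OR1O9 -3.62, OR12K5 -1.67, OR2M17 -4.02, IL1A -1.85, IL6 -1.45, IL31RA -1.75 and PGLYRP3 -1.16. Skin and matrix genes were LY6D -1.01, AQP3 -1.71, CD44 -1.23, DSC2 -1.81, COL9A2 -0.94, COL17A1 -0.98, COL16A1 -0.78 and MMP13 -1.57. The rest were LINGO4 -0.97, HOXC13 -0.69, MIR181A -2.33, MYH15 -0.91, MYL2 -0.95, MUSK -1.36, AGRN -0.998, WFIKKN1 -1.29, ELOVL7 -2.10 and ELOVL4 -1.36.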

How the results depend on the processing

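The count of called probesets was 0 with horse as a block and stayed 0 in the fit with no replicate block (1120 at an unadjusted p under 0.05, against 2666), under 3 other normalizations, among the brighter 50% of features, with trended and robust variances, with array weights and with each horse left out (0 to 0). It was 2 by the methods' paired test, 5 in the fit of all 18 arrays, 178 without L4 and L5, and 180 with quantile normalization without L4 and L5. The difference between regimens was called at 6960 probesets with no replicate block instead of 11179, at 8133 with quantile normalization (52.5% with the low dose change higher), at 11770 with median centring (67.4% higher, against 46.2%), and at 9187 to 12239 with 1 horse left out. Of 110 symbol-stem families and 51 lists, 25 kept 1 sign in all horses, and 20 to 29 did under the other normalizations, without the brightness subtraction and among the brighter 50% of features, although among the brighter 50% of features 10 of the 22 stem families remained and without the subtraction 12. With 1 horse left out the count was 28 to 56, and 84 without L4 and L5, where agreement of 3 horses is enough.

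Over 253 genes and 15 settings, 3727 of 3795 values kept their direction and their side of the threshold. The 9 that came under it were SNX5 in the fit of all 18 arrays, ARRB2 by the methods' paired test, and 7 genes without L4 and L5. FBXL13 had a change of 0 without L4 and L5. The direction turned in 58 values of 24 genes, whose changes lay between -0.292 and 0.214. The turned log2 changes with quantile normalization were LPL -0.0822, LMOD1 -0.0828, CD8A 0.0632, CSF1R -0.0394 and ALAS2 0.0405. The turned log2 changes with median centring were ACTA2 0.012, RGS5 0.04, CD8A 0.002 and ALAS2 0.004. The turned log2 changes with cyclic loess were LPL -0.0431, GAPDH 0.0795 and SOX10 -0.0679. The turned log2 changes with array weights were MYH10 -0.00304, PMP22 -0.0504, ACTA2 0.133, RGS5 0.0528 and SOX10 -0.0494. The turned log2 changes without L4 and L5 were MYH10 -0.13, COL3A1 0.0133, PMP22 -0.03, MUSK -0.0967, MMP13 -0.0633, PRX 0.13, EGFL7 0.0833, ACTA2 0.24, RGS5 0.15 and SOX10 -0.07. With 1 horse left out, the changes ranged over MYH10 -0.055 to 0.207, MYH15 -0.0025 to 0.175, COL1A2 -0.04 to 0.165, IL6 -0.0825 to 0.11, PMP22 -0.0175 to 0.205, PMPCA -0.0225 to 0.37, MYLK -0.0875 to 0.11, MUSK -0.0475 to 0.285, LPL -0.0575 to 0.095, HEMGN -0.0425 to 0.348, CA1 -0.185 to 0.01, EGFL7 -0.42 to 0.005, ACTA2 -0.185 to 0.32, RGS5 -0.1 to 0.0875, LMOD1 -0.125 to 0.45, SOX10 -0.107 to 0.0575, CD8A -0.202 to 0.105, CSF1R -0.095 to 0.273, SLC4A1 -0.085 to 0.0875 and ALAS2 -0.187 to 0.135. The cause was not tested. With 5 horses and dim signals near background, small changes are not resolved.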
